A study of Mus musculus with 40 samples.

Results

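The genes described here are the nuclear genes for subunits of the oxidative phosphorylation complexes, measured in mouse liver by RNA sequencing. They were chosen by symbol (Nduf with a family letter and number, Sdha to Sdhd, Uqcr, Cyc1, Cox4 to Cox8 with a letter, and Atp5), without pseudogene symbols and with at least 200 reads summed over all lane files. That left 78 of the 32544 gene rows, and all 78 entered the test. They comprise 35 members of complex I, 4 of complex II, 9 of complex III, 11 of complex IV, 15 of complex V and 4 relatives whose products are not standard subunits. The last 4 are Cox7a2l, a factor of respiratory supercomplexes, Ndufa4l2, a paralogue of Ndufa4, Atp5s, known as coupling factor B of ATP synthase, and Atp5sl. Because the rule works on symbols, Cox4i1 and Ndufab1 fall outside it although both encode subunits.

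Every liver came from a male C57BL/6 mouse raised germ-free, without gut microbes. Treatment lasted 6 weeks and tissue was collected at postnatal day 64. The 4 groups of 5 mice were Western diet with delta-valerobetaine (VB), Western diet with vehicle, control diet with VB, and control diet with vehicle. VB is a trimethylated compound known to be made by gut bacteria. The comparisons ask what VB does to liver transcripts on each diet, what the diet does in each treatment, and whether the effect of VB depends on the diet.

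Oxidative phosphorylation is the main source of ATP in hepatocytes. Complexes I and II pass electrons from NADH and succinate to ubiquinone, complex III passes them on to cytochrome c, complex IV reduces oxygen, and complex V uses the resulting proton gradient to make ATP. Complexes I, III, IV and V each combine nuclear subunits with subunits encoded by mitochondrial DNA, while complex II is wholly nuclear, and Sdha to Sdhd also carry out a step of the tricarboxylic acid cycle.

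Total counts per mouse ran from 16315342 to 24566686, and the members took 1.38% to 1.97% of them. Hepatocyte markers were high in every mouse, with a summed level of 31420 to 52430 CPM, which are counts scaled to a common library size by trimmed mean of M values, and T and B cell markers were at most 4.04 CPM in sum. Mouse 4 of the Western diet vehicle group stood apart. It had the highest level of its group for 71 of the 78 members and the lowest for 3, and its median member was 0.83 higher on the log2 CPM scale than the mean of the other 4 mice, or 1.78-fold. Its counts on mitochondrially encoded genes were 4.62% of the library, against 1.99% to 3.33% in the other 19 mice. Its hepatocyte marker sum of 52430 CPM was also the highest of all 20 mice, and its Kupffer cell marker sum of 63.0 CPM was the lowest of its group. Its adipocyte marker sum was 47.2 CPM, against 2.46, 11.01, 6.01 and 2.31 CPM in the other 4 mice. Most of that list's level in the group was Cidea, which averaged 13.6 CPM, while Lep and Ucp1 were at 0 in all 5 mice. Results that rest on this library are given with and without it. Whether its marker levels play a part in the member levels was not tested. In bulk tissue, fewer cells of a type and less RNA per cell cannot be told apart.

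By median over 20 mice, complex V held 31.9% of the members' summed level, followed by complex I at 27.2%, complex IV at 17.4%, complex III at 15.1% and complex II at 8.06%. Levels between genes are compared per length of transcript, as mean CPM per kilobase over 20 mice on the shortest principal transcript, a length that may not be the one used in liver. On that scale 77 members had a value, and 63 of them were at 100 or more. Complex I had the lowest median of the complexes I to V, 152 CPM per kilobase, and complex IV the highest, 431 CPM per kilobase. The members at the top were Uqcrq, a small subunit of complex III, at 1199 CPM per kilobase, Ndufa4, now counted to complex IV, at 1070, Cox6a1 at 758 and Atp5g3, a gene for the c subunit of the rotor ring, at 754. Atp5b, the catalytic beta subunit of ATP synthase, had the highest level per gene, 1310 CPM, and 684 CPM per kilobase. Within complex I, Ndufb9 was highest at 443 CPM per kilobase, and Ndufs4, an accessory subunit, was lowest at 41.3, next to Ndufs1, the largest core subunit, at 42.9. Within complex II, Sdhb, the iron-sulfur subunit, had 299 CPM per kilobase, and Sdhc, a membrane anchor, had 53.4.

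Subunit genes with a form known from muscle were low in liver. Cox7a1, the heart and skeletal muscle form of subunit VIIa, averaged 1.06 CPM over 20 mice. Its share of the per-length level of Cox7a1 and Cox7a2 together was 0.706% ± 0.37 in Western diet VB mice, 0.884% ± 0.36 in Western diet vehicle mice, 0.857% ± 0.23 in control diet VB mice and 0.663% ± 0.21 in control diet vehicle mice (SD, n = 5 each). The ranges of all groups overlapped, and Cox7a2, the form found in liver, made up at least 98.7% in every mouse. Just inside the limit of 200 reads were Ndufa4l2 with 350 reads and Cox7a1 with 425, and just outside were Cox6b2 with 65 and Cox8b with 40. Cox8b, a muscle and brown fat form, had 21 of its 40 reads in mouse 5 of the Western diet VB group and 9 in mouse 2 of that group. In mouse 5 the muscle marker sum was 6.83 CPM, against at most 0.263 CPM in any other mouse. The adipocyte marker sum was 6.83 CPM in mouse 5 and 12.5 CPM in mouse 2. It was 0.869, 0.696 and 0.309 CPM in mice 1, 3 and 4 of that group. Cox6a2 had 16 reads, Cox7b2 had 1, and Cox8c had none, which allows up to 3 reads over all 20 mice.

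The 3 genes for the c subunit, Atp5g1, Atp5g2 and Atp5g3, encode one mature protein behind different import sequences. Atp5g3 made up 55.7% ± 1.2 of their per-length level in Western diet VB mice, 60.1% ± 1.0 in Western diet vehicle mice, 57.0% ± 1.5 in control diet VB mice and 57.8% ± 1.5 in control diet vehicle mice (SD, n = 5 each). The share lay at 54.3% to 57.4% in Western diet VB mice and at 58.9% to 61.5% in Western diet vehicle mice, 2 ranges that did not overlap. This share was singled out after its values were seen and has no test. None of the 3 genes passed the test in any comparison. The sources do not say how reads shared between such near-identical copies and their pseudogenes were counted, so single values of these genes are uncertain.

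**Figure D1:**
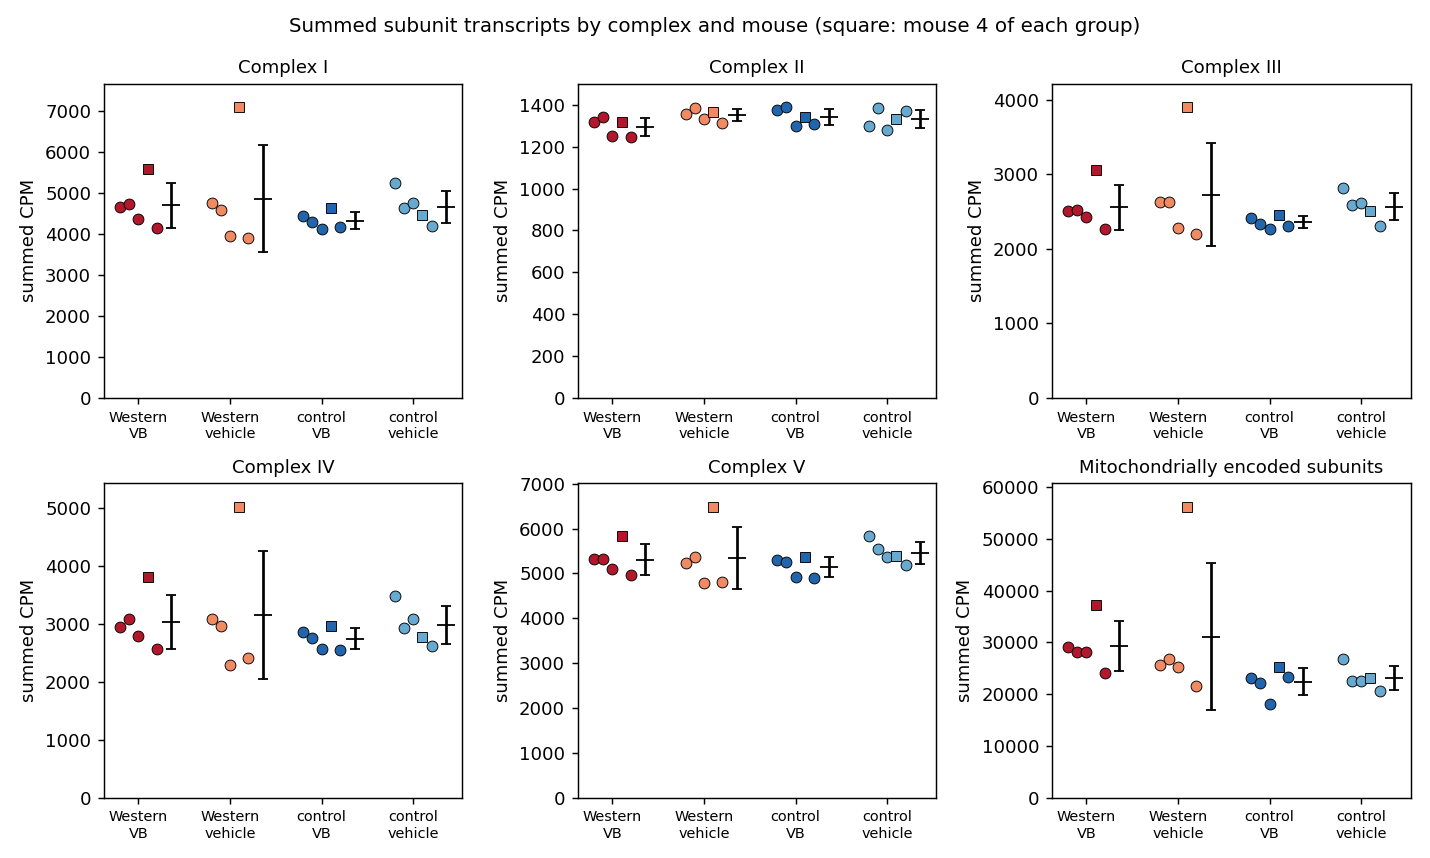
Summed CPM of the members of each complex, and of the 13 mitochondrially encoded subunits, in each mouse, by group (Western diet VB, Western diet vehicle, control diet VB, control diet vehicle). Points are mice, squares mark mouse 4 of each group, and bars give the mean and SD of 5 mice. Complex II stays between 1247 and 1390 CPM in all 20 mice, with Sdhb and Sdhc high and Sdha low in mouse 4 of the Western diet vehicle group, while mouse 4 of the Western diet vehicle group reaches 7105 CPM in complex I and 56190 CPM in the mitochondrially encoded subunits.

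The ranges of the summed level overlapped between all 4 groups for each of the 5 complexes. Complex I summed to 4705 ± 544 CPM in Western diet VB mice, 4864 ± 1310 in Western diet vehicle mice, 4329 ± 212 in control diet VB mice and 4666 ± 398 in control diet vehicle mice (SD, n = 5 each). Without mouse 4 the Western diet vehicle mean was 4304 ± 432 CPM (SD, n = 4), the lowest of the 4 groups, while with it that mean was the highest. Complex IV behaved alike, at 3038 ± 470, 3155 ± 1100, 2742 ± 181 and 2980 ± 327 CPM in the same order of groups, with 2688 ± 394 CPM in Western diet vehicle mice when mouse 4 was left out. Complex V summed to 5309 ± 338 CPM in Western diet VB mice, 5336 ± 692 in Western diet vehicle mice, 5149 ± 225 in control diet VB mice and 5466 ± 245 in control diet vehicle mice. Without mouse 4 its Western diet vehicle mean was 5048 ± 290 CPM, the lowest of the 4 groups. Complex III summed to 2556 ± 299, 2728 ± 687, 2356 ± 79.4 and 2567 ± 186 CPM in the same order of groups. Without mouse 4 its Western diet vehicle mean was 2434 ± 229 CPM. Complex II was the steadiest, at 1296 ± 43.5 CPM in Western diet VB mice, 1350 ± 28.4 in Western diet vehicle mice, 1343 ± 38.9 in control diet VB mice and 1334 ± 43.3 in control diet vehicle mice. Its members were less steady than their sum. In mouse 4 of the Western diet vehicle group, whose sum was 1364 CPM, Sdhb had 467 CPM against 307 to 346 in the other 4 mice and Sdhc had 251.5 CPM against 141 to 182, while Sdha had 400 CPM against 584 to 617, so opposite differences offset each other. The 7 nuclear core subunits of complex I summed to 1097 ± 66.6, 1142 ± 144, 1069 ± 28.2 and 1115 ± 50 CPM in that order.

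Subunits picked from each complex gave the same picture of overlapping groups. Ndufv1 averaged 209 ± 7.46 CPM in Western diet VB mice, 222 ± 12.98 in Western diet vehicle mice, 210 ± 10.6 in control diet VB mice and 223 ± 9.24 in control diet vehicle mice (SD, n = 5 each). Sdhb averaged 338 ± 38.0, 360 ± 62.2, 324 ± 15.4 and 345 ± 15.9 CPM in the same order of groups. Uqcrfs1, the Rieske iron-sulfur protein of complex III, averaged 272 ± 20.1, 302 ± 45.6, 270 ± 8.96 and 274 ± 17.02 CPM. The group ranges overlapped for all 3, and the SD was largest in the Western diet vehicle group each time. Cox5b, a zinc-binding subunit of complex IV, averaged 247 ± 42.4, 250 ± 113, 215 ± 22 and 232 ± 28.3 CPM, and mouse 4 of the Western diet vehicle group held the 446 CPM at the top. Atp5a1 averaged 939 ± 27.4, 958 ± 42.6, 901 ± 45.3 and 953 ± 30.4 CPM. Atp5b averaged 1267 ± 81.3, 1216 ± 205, 1381 ± 47.0 and 1377 ± 72.1 CPM.

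The members varied together between mice of a group. After group means were removed, the first principal component held 85.2% of the members' variance, and 70.8% without mouse 4 of the Western diet vehicle group. In each group 1 mouse was highest for most members: mouse 4 of the Western diet VB group for 70 of 78, mouse 4 of the Western diet vehicle group for 71, mouse 4 of the control diet VB group for 53 and mouse 1 of the control diet vehicle group for 62. The cytosolic ribosomal protein genes, which belong to another machinery, moved the same way in those mice: their median lay 0.24, 0.70, 0.15 and 0.30 above the group mean on the log2 scale in the same order, beside 0.29, 0.66, 0.10 and 0.20 for the members. The median within-group SD of a member was 0.25 on the log2 CPM scale, and that of all 12616 tested genes was 0.26, with 48.4% of all tested genes at or below the members' median.

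**Figure D2:**
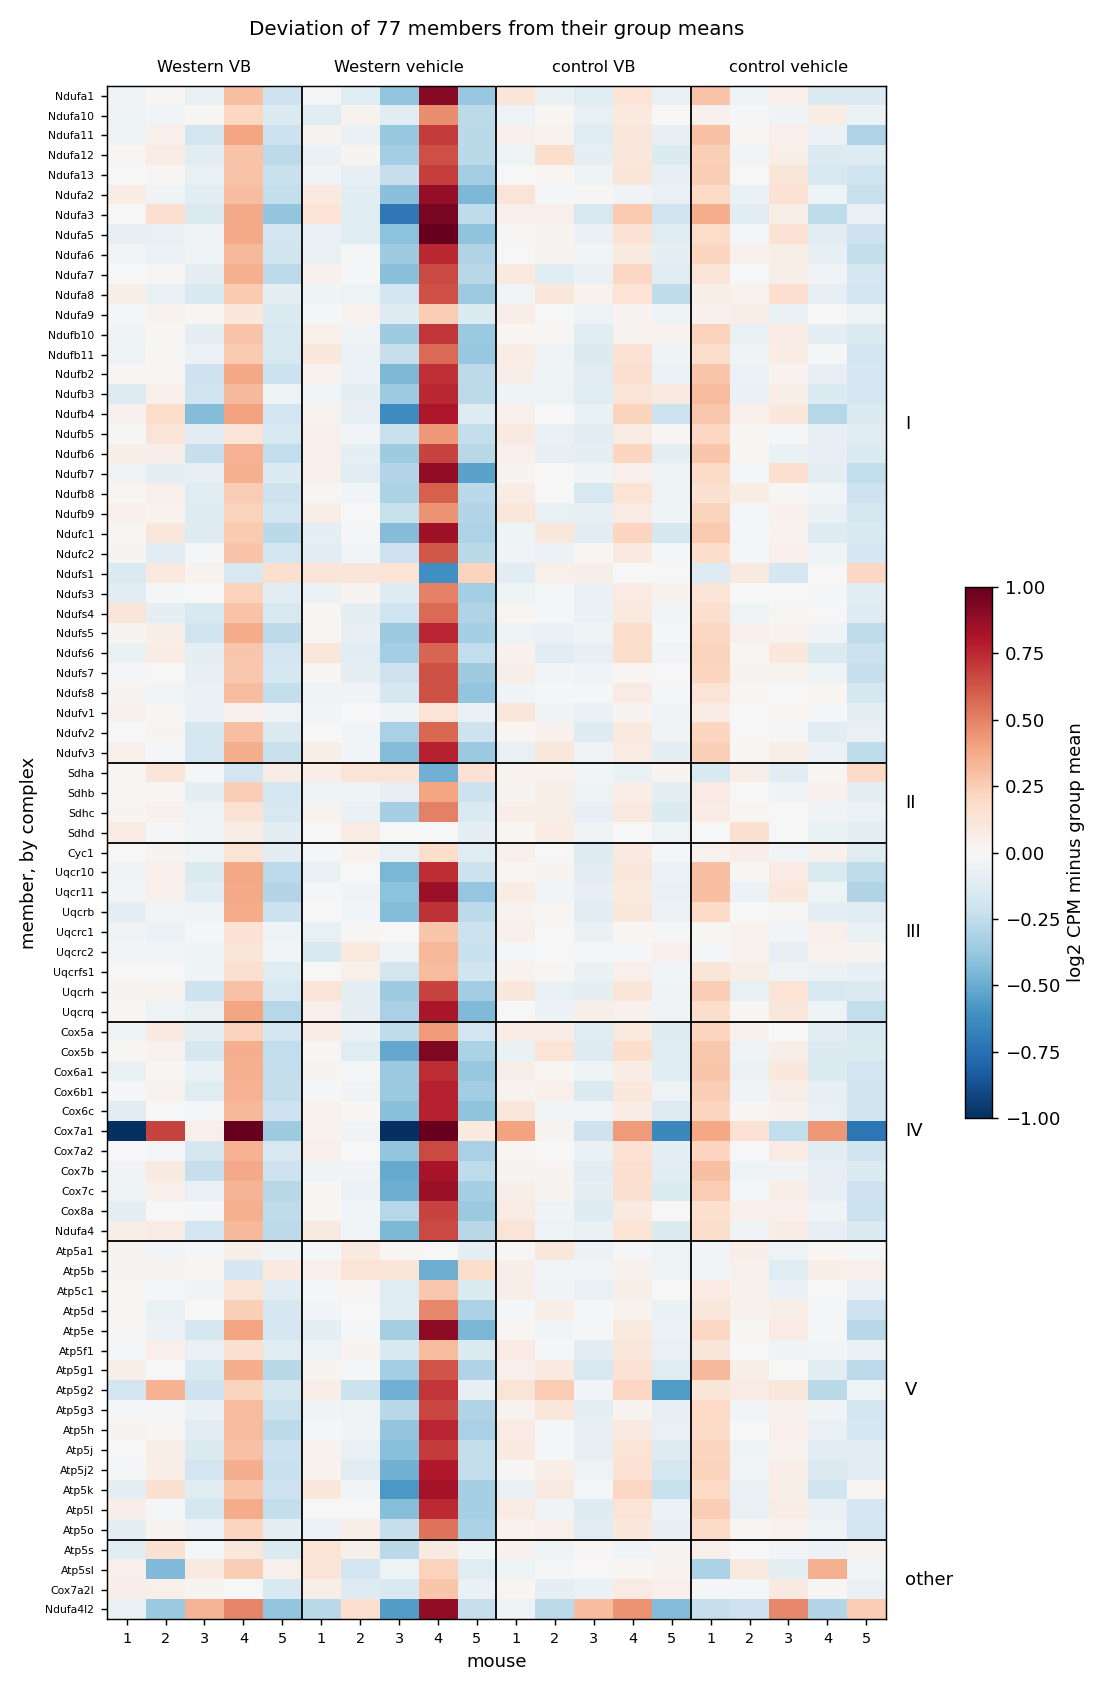
Difference of 77 of the 78 members from their group means (log2 CPM, colour scale cut at 1 in both directions) in every mouse, with members in rows by complex and mice in columns by group. Mouse 4 of the Western diet vehicle group is high for most members and low for Ndufs1, Sdha and Atp5b.

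Members with short transcripts varied most. Across the 77 members with a length, Spearman's rho between transcript length and within-group SD was -0.72, a description across genes that share the same 20 libraries. The 51 members under 1000 bases had a median SD of 0.27 and the 26 longer ones a median of 0.14. Among the steadiest were Atp5a1, the alpha subunit of ATP synthase, with an SD of 0.057, Ndufv1, which binds NADH, with 0.067, Sdhd, a membrane anchor of complex II, with 0.075, and Cyc1, cytochrome c1, with 0.092. Atp5a1 had 959, 921, 924, 976 and 913 CPM in the 5 Western diet VB mice, 946, 1017, 968, 962 and 899 CPM in Western diet vehicle mice, 909, 975, 862, 888 and 869 CPM in control diet VB mice, and 936, 999.5, 920.4, 964 and 944 CPM in control diet vehicle mice. All 20 values lay close together and the 4 groups overlapped. Cox7a1, with an SD of 0.75, was the most variable and also one of the members with fewest reads.

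The difference of mouse 4 of the Western diet vehicle group followed length as well, with a rho of -0.71 across members and of -0.29 across the 12275 tested genes with a length. Members under 1000 bases were higher in it by a median of 0.92 on the log2 scale and longer ones by 0.37, while all tested genes had medians of 0.41 and -0.06. Its 3 low members were long. Sdha, the flavoprotein of complex II that oxidises succinate, had 400 CPM in this mouse and 584, 612, 609 and 617 CPM in the others of its group. Atp5b had 856 CPM against 1245, 1321, 1303 and 1355 CPM, and Ndufs1 had 74.0 CPM against 124, 124, 125 and 133 CPM. For all 3 genes this mouse was also the lowest of all 20, and mouse 4 of the Western diet VB group was the next lowest, at 476, 1128 and 92.2 CPM for Sdha, Atp5b and Ndufs1. The labels give no RNA integrity, and its part in these differences was not tested.

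**Figure D3:**
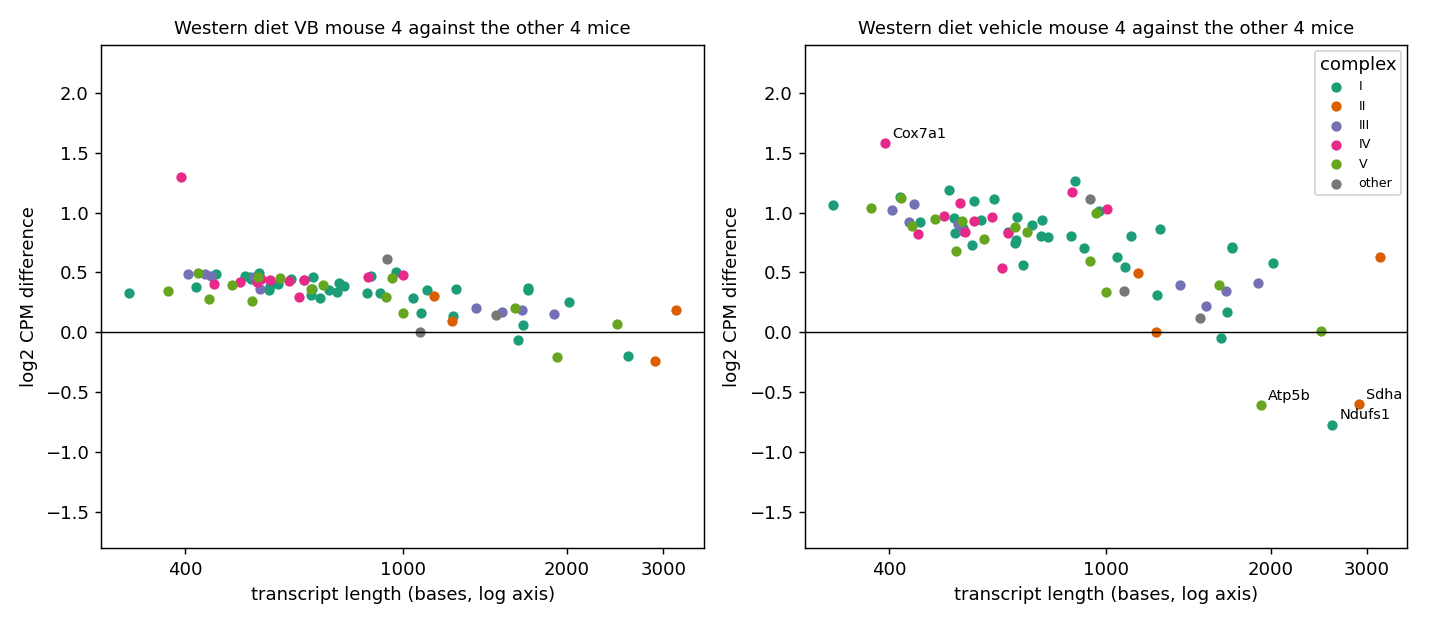
Difference in log2 CPM between mouse 4 and the mean of the other 4 mice of its group against transcript length in bases (log axis) for 77 members, in the Western diet VB group (left) and the Western diet vehicle group (right), coloured by complex. In the VB group the median over members is 0.36. In the vehicle group members under 1000 bases have a median of 0.92, and Sdha, Atp5b and Ndufs1 lie below 0.

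No member passed the test for VB on the Western diet. Of 78, none reached an adjusted p of 0.05 in edgeR's quasi-likelihood test, where 7.19% of all tested genes did. In the same test 1 member had an unadjusted p under 0.05, beside 20.3% of all tested genes. DESeq2 and limma-voom called none either. The median log2 change of the members was -0.05, against -0.02 for all genes, and 60 of 78 were below 0. The 1 member with an unadjusted p under 0.05 was Uqcrc2, a core protein of complex III, with 167 ± 8.30 CPM in VB mice and 194 ± 30.8 CPM in vehicle mice (SD, n = 5 each), a log2 change of -0.22 (SE 0.08, adjusted p = 0.138 in edgeR). By complex, the median change lay between -0.09 in complex III and -0.03 in complex V. The smallest p in complex V was that of Atp5g2, at 0.26 (SE 0.18, adjusted p = 0.477). For Uqcrc2 the VB range of 162 to 182 CPM overlapped the vehicle range of 164 to 241 CPM, where 241 CPM is mouse 4. That mouse was 0.41 above the mean of the other 4 vehicle mice on the log2 CPM scale. Over 33 alternatives the change of Uqcrc2 ran from -0.27 to -0.12, and it passed in none. The 95% interval of the change lay within 1.5-fold in both directions for 75 of 78 members, and within 2-fold for 77, the exception being Cox7a1.

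Without mouse 4 of the vehicle group, the members' median change with VB on the Western diet turned to 0.16, with 64 of 78 above 0, and 2 complex I members passed the test where 9.62% of all genes did. Ndufv3, an accessory subunit beside the NADH site, had 103, 97.4, 87.6, 128 and 85.0 CPM in VB mice and 89.4, 84.6, 63.7, 147 and 66.6 CPM in vehicle mice, where 147 CPM is mouse 4. Its log2 change was 0.15 (SE 0.17, adjusted p = 0.698 in edgeR) with all mice and 0.39 (SE 0.12, adjusted p = 0.0383 in edgeR) without that mouse. The groups overlapped either way, since the vehicle mouse at 89.4 CPM lay within the VB range, while the other 3 were below it. Ndufs1 went the other way, with 93.2, 110, 106, 92.2 and 115 CPM in VB mice and 124, 124, 125, 74.0 and 133 CPM in vehicle mice. All 5 VB mice were below 4 of the 5 vehicle mice and above mouse 4. Its log2 change was -0.17 (SE 0.12, adjusted p = 0.493 in edgeR) with all mice and -0.28 (SE 0.08, adjusted p = 0.0309 in edgeR) without mouse 4. In the same fit 13 of 74 cytosolic ribosomal protein genes were higher and none lower, against none in either direction with all mice. When mouse 4 of the VB group was left out as well, a choice made after seeing the data, no member passed, where 9.28% of all genes did. The median was 0.07.

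No member passed the test for VB on the control diet either. In edgeR none of 78 had an unadjusted p under 0.05, and edgeR, DESeq2 and limma-voom called none. In this comparison 0.151% of all tested genes were called and 10.7% had an unadjusted p under 0.05. Mouse 4 of the Western diet vehicle group is in neither group compared here but enters the shared spread. Without it 4 members had an unadjusted p under 0.05 in edgeR. With both mouse 4 libraries of the Western diet left out 10 did, and no member was called in either fit. The median log2 change was -0.12, against 0.00 for all genes, and 68 of 78 members were below 0, including all 9 of complex III. Without mouse 1 of the control diet vehicle group, the highest of its group for 62 members, the median was -0.07. The members with the smallest p in complexes I, III and IV were Ndufc2, an accessory subunit of complex I, at -0.23 (SE 0.13, adjusted p = 0.539 in edgeR), Cyc1 at -0.13 (SE 0.07, adjusted p = 0.559) and Cox5a at -0.18 (SE 0.11, adjusted p = 0.603). Ndufc2 had 67.3, 66.3, 69.3, 73.4 and 68.2 CPM in VB mice and 91.0, 79.8, 83.4, 78.4 and 71.9 CPM in vehicle mice. Mouse 4 of the VB group lay above mouse 5 of the vehicle group, and the other 4 VB mice lay below all 5 vehicle mice. The cytosolic ribosomal protein list, with no call among its 74 tested genes, had a median of -0.23 in the same comparison. With all mice the interval lay within 1.5-fold for 74 of 78 members.

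**Figure D4:**
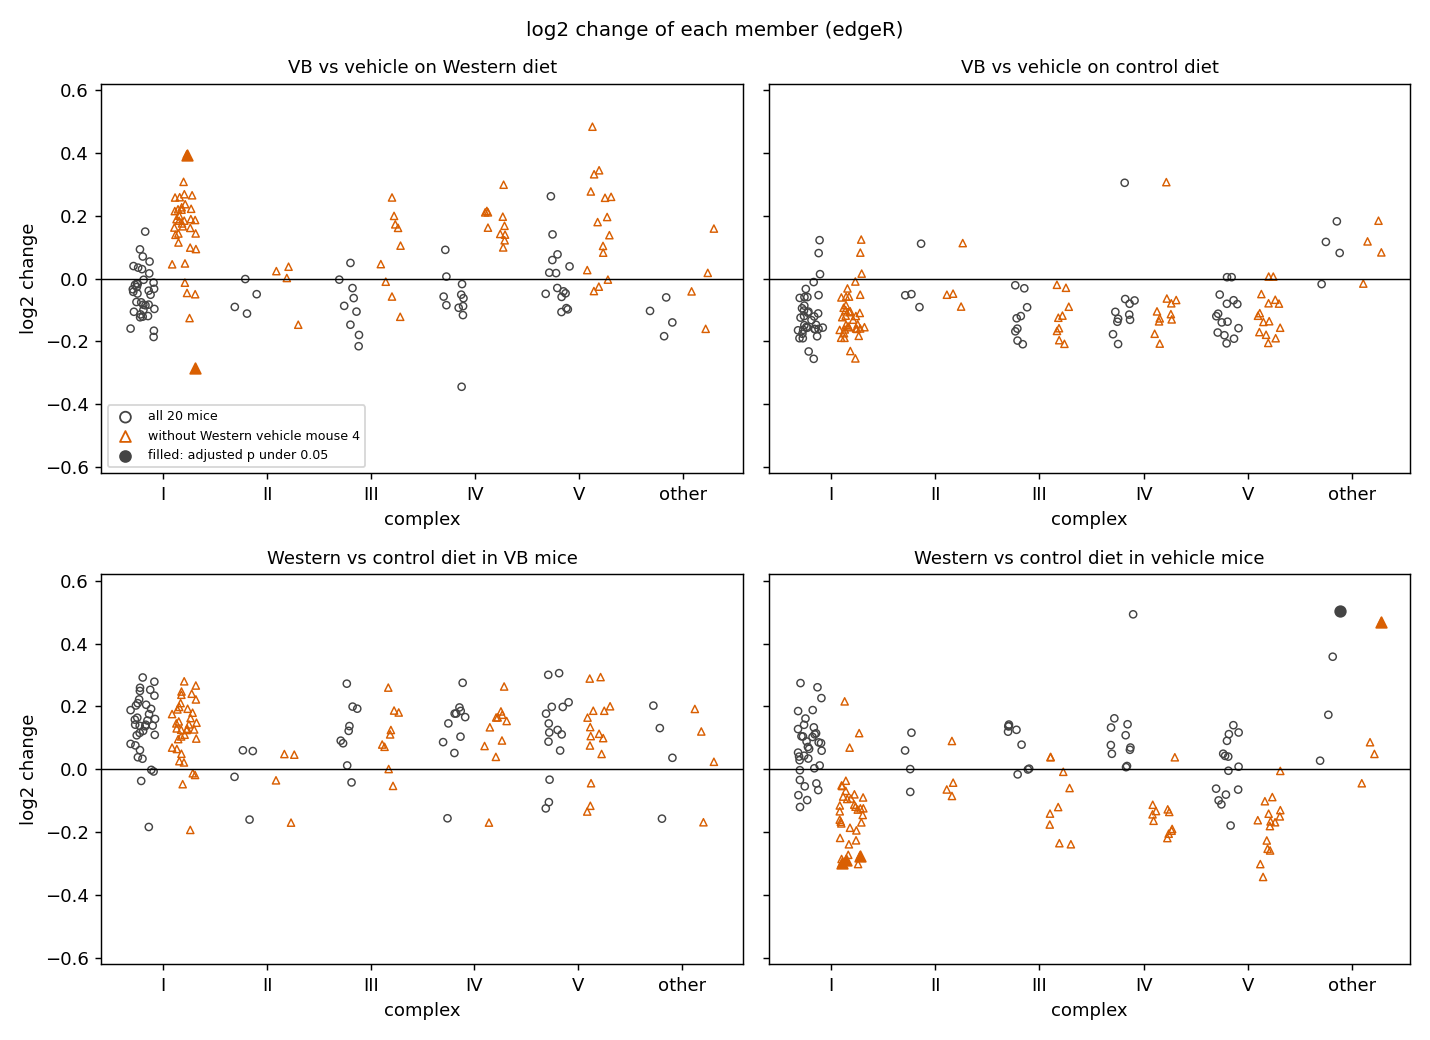
log2 change of each of the 78 members in edgeR by complex for VB against vehicle on the Western diet and the control diet (top) and for Western against control diet in VB and vehicle mice (bottom). Circles use all 20 mice, triangles leave out mouse 4 of the Western diet vehicle group, and filled symbols passed an adjusted p of 0.05; the median for diet in vehicle mice is 0.07 with all mice and -0.13 without that mouse.

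The Western diet in vehicle mice raised 1 of 78 members, where 16.5% of all tested genes were called. The member was Atp5s (chromosome 12, 69724950 to 69744660, plus strand, GRCm38), at 5.99 CPM one of the lowest of the list. It had 7.83, 7.42, 5.89, 7.58 and 6.97 CPM in Western diet vehicle mice and 5.22, 5.04, 4.94, 4.84 and 5.17 CPM in control diet vehicle mice. Every Western diet mouse was above every control diet mouse. The log2 change was 0.50 (SE 0.11, adjusted p = 0.0018 in edgeR), and it was 0.47 (SE 0.11, adjusted p = 0.00513) without mouse 4, which was not an extreme for this gene. DESeq2 and limma-voom called the same 1 member. The VB groups had intermediate means, with 5.78, 6.99, 6.22, 6.79 and 5.67 CPM on the Western diet and 5.62, 5.28, 5.53, 5.32 and 5.58 CPM on the control diet, and the change with diet in VB mice was 0.20 (SE 0.10, adjusted p = 0.266). The difference between the diets in the effect of VB on Atp5s was -0.30 (SE 0.15, adjusted p = 0.258).

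The call for Atp5s stood beside a large difference in clock genes, of which 9 of 21 were higher and 6 lower in the same comparison. A score taken as the leading principal component of these 21 genes averaged 1.28 ± 0.11 in Western diet vehicle mice and -1.32 ± 0.39 in control diet vehicle mice (SD, n = 5 each), with no overlap. With that score as a covariate the log2 change of Atp5s was 0.69 (adjusted p = 0.845 in edgeR), and no member passed. Since the score separates the groups, that fit cannot divide a change between score and diet, and the lost call decides nothing. The share of all tested genes called in that fit is not given here. The labels give no collection time, so clock state and diet cannot be told apart in these groups.

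Besides Atp5s, 2 members had an unadjusted p under 0.05 in edgeR in this comparison, where 28.7% of all tested genes did. Ndufa10, an accessory subunit of complex I with a kinase fold (chromosome 1, 92439010 to 92473860, minus strand), had 201, 222, 201, 300 and 182 CPM in Western diet vehicle mice and 189, 182, 180, 194 and 177 CPM in control diet vehicle mice. Its high value of 300 CPM was mouse 4, and the groups overlapped at their ends. The log2 change was 0.26 (SE 0.10, adjusted p = 0.09 in edgeR), and 0.12 (SE 0.07, adjusted p = 0.314) without mouse 4. Cox7a2l had 52.2, 45.7, 45.0, 60.6 and 47.8 CPM in Western diet vehicle mice and 44.2, 44.0, 47.4, 44.9 and 42.3 CPM in control diet vehicle mice, with overlapping ranges and a log2 change of 0.17 (SE 0.08, adjusted p = 0.155).

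The median change of the members with diet in vehicle mice was 0.07, with 60 of 78 above 0, against 0.02 for all genes, and its sign rested on 1 library. Without mouse 4 the median was -0.13, with 68 of 78 below 0, and 4 members passed where 18.9% of all genes did: Atp5s higher, and Ndufb10, Ndufb11 and Ndufs7 lower. Ndufs7, the core subunit that holds the last iron-sulfur cluster before ubiquinone (chromosome 10, 80249121 to 80256794, plus strand), had 155, 144, 133, 240 and 120 CPM in Western diet vehicle mice and 191, 169, 169, 159 and 140 CPM in control diet vehicle mice. With mouse 4 at 240 CPM set aside, the other 4 overlapped the control diet mice at 140 to 155 CPM. Its log2 change was -0.07 (SE 0.14, adjusted p = 0.808 in edgeR) with all mice and -0.27 (SE 0.09, adjusted p = 0.0429) without mouse 4. Ndufb10 and Ndufb11, accessory subunits of the membrane arm, stood at -0.29 (SE 0.10, adjusted p = 0.0492) and -0.30 (SE 0.10, adjusted p = 0.0402) without it. Cytosolic ribosomal protein genes moved with the same library: 5 of 74 were lower and none higher with all mice, and 61 were lower without mouse 4.

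**Figure D5:**
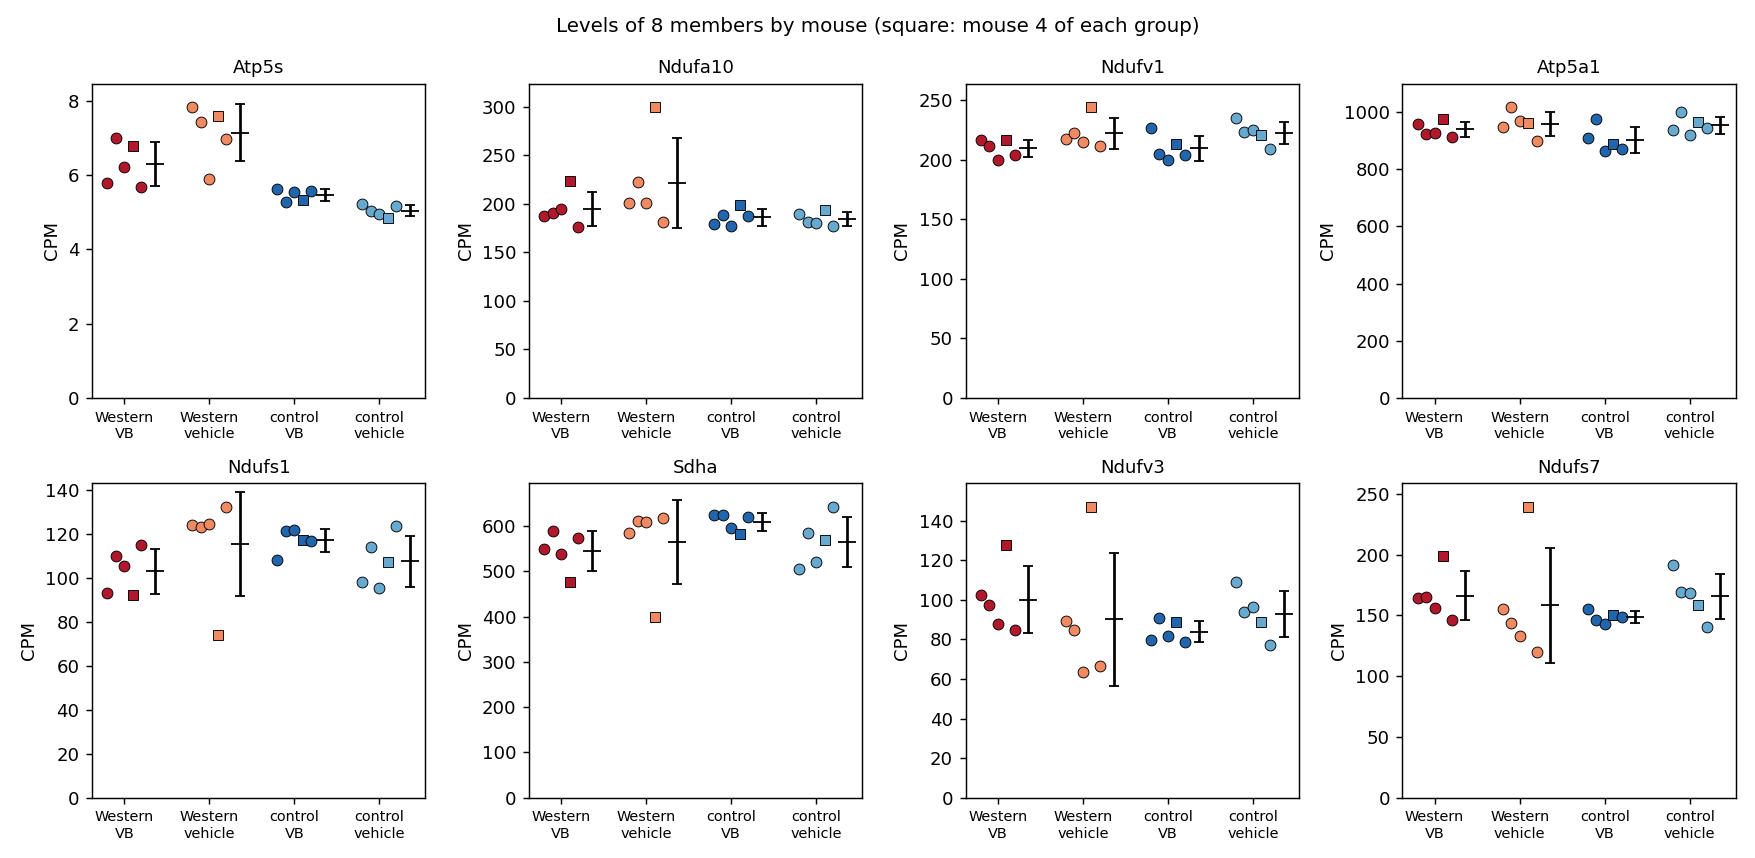
CPM of Atp5s, Ndufa10, Ndufv1, Atp5a1, Ndufs1, Sdha, Ndufv3 and Ndufs7 in each mouse, by group (Western diet VB, Western diet vehicle, control diet VB, control diet vehicle). Points are mice, squares mark mouse 4 of each group, and bars give the mean and SD of 5 mice; Atp5s in Western diet vehicle mice, at 5.89 to 7.83 CPM, lies above all control diet vehicle mice at 4.84 to 5.22 CPM.

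The start regions of the members were searched for short motifs of factors known to control respiratory genes. Whether any motif goes with the shared movement of the members between mice was not tested. The promoters of 4 members are shown, picked after values and matches were seen: that of Atp5s, the 1 member called with all mice, and those of Ndufa10, Ndufs7 and Ndufb7, an accessory subunit of complex I, which each hold a different motif. RefSeq promoters of GRCm38.p6, which run from 250 bases before to 50 bases after the annotated start, matched 64 of the 78 members. Both strands were searched for 4 letter strings. The core of the NRF1 site, GCGCATGCG, was in 12.5% of the 64 and in 1.81% of all 27025 promoters, 1 a gene, and the ETS core bound by GABP, CCGGAAG, was in 23.4% and 9.12%. The YY1 core, AAGATGGCG, was in 9.4% and 1.49%, and the cyclic AMP response element, TGACGTCA, was in 6.2% and 1.88%. For a member the promoter nearest its annotated gene start was used. For all genes the first listed promoter was used, whether or not the gene was tested here. The shares are therefore not strictly alike, and their differences were not tested. No string contains another, and 28 members held at least 1 of them. All 6 matches of the YY1 core lay 22 to 35 bases after the start. The lines below give these 4 promoters 5′ to 3′ on the strand of the gene, with matches in capitals.
Atp5s, chr12:69724695-69724994, plus strand, no match: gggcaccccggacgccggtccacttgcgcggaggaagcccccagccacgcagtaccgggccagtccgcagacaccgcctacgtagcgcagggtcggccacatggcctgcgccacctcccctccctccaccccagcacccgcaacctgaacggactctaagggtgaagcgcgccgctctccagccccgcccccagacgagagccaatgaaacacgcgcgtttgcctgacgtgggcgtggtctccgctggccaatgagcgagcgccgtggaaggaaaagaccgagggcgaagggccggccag
Ndufa10, chr1:92473709-92474008, minus strand, cyclic AMP response element in capitals: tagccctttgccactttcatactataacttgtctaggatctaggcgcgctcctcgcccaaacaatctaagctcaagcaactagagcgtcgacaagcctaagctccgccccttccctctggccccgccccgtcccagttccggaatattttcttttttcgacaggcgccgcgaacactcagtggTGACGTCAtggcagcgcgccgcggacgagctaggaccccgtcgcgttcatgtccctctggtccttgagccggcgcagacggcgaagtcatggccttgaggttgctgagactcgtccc
Ndufs7, chr10:80249199-80249498, plus strand, YY1 core in capitals: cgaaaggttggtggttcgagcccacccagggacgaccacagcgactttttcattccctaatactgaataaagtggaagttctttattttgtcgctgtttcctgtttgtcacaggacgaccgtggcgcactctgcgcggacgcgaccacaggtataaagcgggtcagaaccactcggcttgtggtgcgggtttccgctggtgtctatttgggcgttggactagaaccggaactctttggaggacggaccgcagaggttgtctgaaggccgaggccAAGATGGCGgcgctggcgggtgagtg
Ndufb7, chr8:83566508-83566807, plus strand, ETS core in capitals: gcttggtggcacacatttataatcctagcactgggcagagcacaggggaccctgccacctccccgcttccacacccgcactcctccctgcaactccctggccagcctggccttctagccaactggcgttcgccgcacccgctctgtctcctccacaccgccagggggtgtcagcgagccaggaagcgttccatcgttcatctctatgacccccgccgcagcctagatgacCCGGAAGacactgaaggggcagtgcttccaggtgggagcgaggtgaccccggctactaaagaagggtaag

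The match in Ndufa10 begins 67 bases before the start, that in Ndufs7 begins 24 bases after it, and that in Ndufb7 begins 20 bases before it. Atp5s, the only member called with all mice, held none of the 4 strings in this window, and neither did Ndufv3 or Ndufb10. A match is a string of letters and was not measured as a bound site.

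No member passed the test for the Western diet in VB mice, where 6.44% of all tested genes were called. In edgeR 1 of 78 had an unadjusted p under 0.05, beside 21.6% of all tested genes, and DESeq2 and limma-voom called none. Mouse 4 of the Western diet vehicle group is in neither group compared here but enters the shared spread. Without it 11 members had an unadjusted p under 0.05 in edgeR. With both mouse 4 libraries of the Western diet left out 2 did, and no member was called in either fit. With all mice the median change was 0.14, with 66 of 78 above 0, against 0.00 for all genes. By complex, the median change was 0.14 in complex I, 0.02 in complex II, 0.12 in complex III, 0.17 in complex IV and 0.12 in complex V. The smallest p was that of Cox5a, a nuclear subunit of complex IV, with 237, 260, 229, 287 and 213 CPM in Western diet VB mice and 213, 213, 186, 217 and 185 CPM in control diet VB mice. The ranges met at 213 to 217 CPM, and the log2 change was 0.28 (SE 0.11, adjusted p = 0.156). Next by complex were Ndufa8, an accessory subunit of complex I, at 0.26 (SE 0.14, adjusted p = 0.287), and Atp5e, the epsilon subunit of ATP synthase, at 0.31 (SE 0.18, adjusted p = 0.342). Without mouse 4 of the Western diet VB group the median of the members was 0.06, and with both mouse 4 libraries of the Western diet left out it was 0.05. The 13 mitochondrially encoded subunits had a median of 0.44 in this comparison and none passed. Without mouse 4 of the Western diet vehicle group 10 were called higher, or 76.9% beside 11% of all tested genes. Their median was 0.425 there, and the mice compared were the same. With both libraries left out 2 were called higher, or 15.4% beside 7.93%. With all mice the interval of the change lay within 1.5-fold for 66 of 78 members and within 2-fold for 77.

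The difference of the VB effects between diets, Western minus control, passed for no member, where 7.64% of all tested genes passed. No member had an unadjusted p under 0.05 in edgeR, where 20.6% of all tested genes did, and DESeq2 and limma-voom called none. The median was 0.06, against -0.02 for all genes, and the standard errors were larger here, with a median of 0.21, so that 51 of 78 intervals lay within 1.5-fold. The smallest p by complex included Ndufs1 at -0.29 (SE 0.17, adjusted p = 0.356), Cox5a at 0.27 (SE 0.16, adjusted p = 0.369) and Atp5g1 at 0.31 (SE 0.22, adjusted p = 0.456). Without mouse 4 of the Western diet vehicle group the median was 0.29, and 5 members of complex I passed where 13.4% of all genes did. Ndufv3 at 0.54 (SE 0.16, adjusted p = 0.0305 in edgeR), Ndufs7 at 0.42 (SE 0.13, adjusted p = 0.0317), Ndufb7 at 0.47 (SE 0.16, adjusted p = 0.0442) and Ndufb10 at 0.42 (SE 0.14, adjusted p = 0.0478) were higher, and Ndufs1 at -0.41 (SE 0.11, adjusted p = 0.0203) was lower. In the same fit 46 of 74 cytosolic ribosomal protein genes were higher and none lower. With both mouse 4 libraries left out only Ndufs1 passed, at -0.37 (SE 0.11, adjusted p = 0.0315 in edgeR), where 12.6% of all genes did. All of these comparisons share groups, so their calls are not independent.

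The other genes of mitochondrial respiration were taken from lists of assembly factors, regulators, the tricarboxylic acid cycle, coenzyme Q synthesis, protein import, mitochondrial ribosomal proteins and mitochondrially encoded subunits. The counts that follow for diet in vehicle mice stand beside 16.5% of all tested genes called with all mice and 18.9% without mouse 4. The Western diet raised 4 of 44 tested assembly factors, or 9.09%, and lowered none, and 2, or 4.55%, rose without mouse 4, shares below those of all genes. Ndufaf4, which acts on complex I, changed by 0.53 (SE 0.15, adjusted p = 0.0133 in edgeR) and by 0.34 (SE 0.11, adjusted p = 0.0381) without that mouse, and Coa7 by 0.44 (SE 0.13, adjusted p = 0.02) and 0.25 (SE 0.09, adjusted p = 0.0491). Coa6, which helps to bring copper to complex IV, stood at 0.73 (SE 0.22, adjusted p = 0.0238) and lost its call without mouse 4, at 0.36 (SE 0.13, adjusted p = 0.0535), as did Uqcc1, an assembly factor of complex III. Of 15 tested regulators 1 rose and 1 fell, or 13.3%. Esrra, a nuclear receptor that drives respiratory genes, rose to 20.8 ± 2.98 CPM on the Western diet, against 12.1 ± 0.65 CPM on the control diet, and Ppargc1a, its coactivator, fell to 6.06 ± 1.20 CPM, against 10.9 ± 2.84 CPM (SD, n = 5 each). Their log2 changes were 0.78 (SE 0.12, adjusted p = 5e-05) and -0.85 (SE 0.28, adjusted p = 0.043), and both kept their calls without mouse 4.

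Of 16 genes of the tricarboxylic acid cycle and pyruvate dehydrogenase, 4 rose on the Western diet in vehicle mice and none fell, or 25% beside 16.5% of all tested genes, in a list whose median was 0.14. Suclg2, a subunit of succinyl-CoA ligase, had 275 ± 17.7 CPM in Western diet vehicle mice and 203 ± 26.5 CPM in control diet vehicle mice (SD, n = 5 each), a log2 change of 0.44 (SE 0.09, adjusted p = 0.00139 in edgeR). The others were Suclg1, Pdha1 and Idh3g, and Idh3g lost its call without mouse 4, at 0.19 (adjusted p = 0.0523), where 4 genes of the list were again higher. Of 13 tested coenzyme Q genes, Coq10b and Coq3 rose and Adck3 fell, or 23.1% of the list. Adck3, a kinase-like protein of coenzyme Q synthesis, had 346 ± 90.3 CPM on the Western diet and 638 ± 53.2 CPM on the control diet, a log2 change of -0.88 (SE 0.14, adjusted p = 9.53e-05) and of -0.75 without mouse 4. Of the 13 mitochondrially encoded subunits, mt-Nd5 rose by 0.66 (SE 0.19, adjusted p = 0.0191), and by 0.33 (SE 0.12, adjusted p = 0.0451) without mouse 4. The median of these subunits was 0.43 with all mice and 0.09 without it. Of 78 tested mitochondrial ribosomal protein genes, Mrpl45 rose and Mrps27 fell, or 2.56%, with 1 higher and 6 lower without mouse 4. None of 10 import genes passed. None of the 14 tested carriers and subunits outside the symbol rule passed in any comparison with all mice, and without mouse 4 of the Western diet vehicle group 2 were lower here.

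VB on the Western diet lowered 2 of the 16 tricarboxylic acid cycle genes and raised none, with all mice and without mouse 4 of the vehicle group. That is 12.5% of the list, beside 7.19% of all tested genes with all mice and 9.62% without mouse 4. Suclg2 had 195 ± 18 CPM in VB mice and 275 ± 17.7 CPM in vehicle mice (SD, n = 5 each), a log2 change of -0.49 (SE 0.09, adjusted p = 0.00164 in edgeR). Pdha1, the E1 alpha subunit of pyruvate dehydrogenase, had 101 ± 2.45 CPM in VB mice and 126 ± 12.1 CPM in vehicle mice, a log2 change of -0.32 (SE 0.09, adjusted p = 0.0316). Both also passed for the difference of the VB effects, at -0.71 (SE 0.13, adjusted p = 0.00137) and -0.56 (SE 0.13, adjusted p = 0.00896). Adck3 rose to 517 ± 51.7 CPM with VB, against 346 ± 90.3 CPM with vehicle, a log2 change of 0.58 (SE 0.14, adjusted p = 0.0119). Gabpb1, a subunit of the ETS factor GABP, rose by 0.57 (SE 0.16, adjusted p = 0.0307). Clock genes were called in the same comparison, with 4 higher and 2 lower of 21. The clock score ran from -0.204 to 0.76 in VB mice and from 1.16 to 1.41 in vehicle mice on this diet, without overlap. Clock state and VB cannot be told apart in these groups. On the control diet no gene of these lists passed for VB, apart from 3 clock genes. The clock score did not overlap there either, at -0.55 to 0.0723 in VB mice and -1.82 to -0.828 in vehicle mice.

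In VB mice the Western diet raised 4 of 78 mitochondrial ribosomal protein genes and lowered none, or 5.13% beside 6.44% of all tested genes. They were Mrps18a, Mrpl12, Mrpl19 and Mrpl37. Without mouse 4 of the Western diet vehicle group, which is in neither group compared here, 13 rose, or 16.7% beside 11% of all genes. With both mouse 4 libraries of the Western diet left out 5 rose, or 6.41% beside 7.93%. The other lists of mitochondrial genes had at most 2 calls each in this comparison with all mice. Cox10, which acts at a step in making the heme of complex IV, rose by 0.43 (SE 0.12, adjusted p = 0.0321 in edgeR), and Esrra by 0.46 (SE 0.12, adjusted p = 0.0189). Tomm40, the channel of protein import, rose by 0.34 (SE 0.10, adjusted p = 0.0378). Idh3a, a subunit of isocitrate dehydrogenase, rose by 0.48 (SE 0.12, adjusted p = 0.0138), while Dlat, the E2 subunit of pyruvate dehydrogenase, fell by 0.46 (SE 0.13, adjusted p = 0.0381). Of the coenzyme Q genes, Coq10b rose by 0.98 (SE 0.21, adjusted p = 0.00547) and Adck4 fell by 0.42 (SE 0.10, adjusted p = 0.0151).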

How the data were processed

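The authors deposited raw read counts per gene, in 40 lane columns for 20 mice. Per the labels, a TruSeq kit was used, and the submitters' processing notes name GRCm38. Aligner, counting tool and strandedness are not stated in these sources. The column names of control diet and Western diet libraries are written in different styles and numbered in separate runs. Whether the diets were handled apart is not stated, and a difference in handling could not be told apart from diet. The 2 lanes of each mouse were added together, since lanes of a mouse differed far less (chi-square over its degrees of freedom 1.33 to 1.49) than mice of a group (10.3 to 80.8). In 1 file the treatment label says vehicle and the title VB; the title was followed.

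Counts were tested in R 4.3.3 with edgeR 4.0.16, using filterByExpr (minimum count 10, minimum total 15), TMM scaling and robust quasi-likelihood over all 4 groups. Benjamini-Hochberg adjustment ran over 12616 genes, with calls under 0.05. Log2 CPM had a prior count of 2. The fit was tested on simulated data. Alternatives were DESeq2 1.42.0, limma-voom (limma 3.58.1), other scalings and filters, single lanes, a replicate block, a clock covariate and leaving out each mouse. Positions and lengths come from GENCODE. p-values reflect differences among individual mice.

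The members, the gene lists and the tests were chosen with earlier results of these data known. Named genes are up to 5 called members of each complex, otherwise the member with the smallest p, 12 fixed subunits and paralogue sets. To these come the highest and lowest member of a complex per length, and up to 3 called genes of each list. The Atp5g shares, Ndufb7, Ndufb10, Ndufb11, Ndufs7, Ndufv3 and any list gene past the third were singled out after their values were seen. The values of 1 complex I member are not reported here.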

Additional observations from a re-analysis of the deposited data

Results flagged for a closer look

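In groups of 5 mice, a value was picked out where the gap between the highest or lowest mouse and its neighbour was large for its whole range (Dixon's 95% critical value). Of 108 groups of values looked at, 14 were picked out, and 9 of the 14 were mouse 4 of the Western diet vehicle group. For a single group of values chance picks about 1 in 20. The 108 share the same mice, and the sums hold the same members, so the 14 cannot be set against that rate. In that mouse the members summed to 23980 CPM, with 14720 to 17140 CPM in the other 4. Complex I summed to 7105 CPM against 3918 to 4756, complex III to 3904 CPM against 2196 to 2635, and the mitochondrially encoded subunits to 56190 CPM against 21620 to 26880. Ndufc2 had 123.5 CPM against 66.61 to 78.71, and Cox6c had 533.3 CPM against 232.9 to 320. Ndufs1 was low there at 73.97 CPM against 123.5 to 132.6, as were Sdha at 399.5 CPM against 583.8 to 617.2 and Atp5b at 855.9 CPM against 1245 to 1355.

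Mouse 4 of the Western diet VB group was high for Ndufb7 at 125.2 CPM against 89.16 to 95.5, for Uqcrc2 at 181.6 CPM against 161.7 to 163.7, and for Cox7a2 at 283.1 CPM against 197.7 to 222.1. In control diet VB mice, Uqcrc2 was high in mouse 5 at 178.2 CPM against 169.2 to 171.3, and Ndufb10 was low in mouse 3 at 126.1 CPM against 136.3 to 139.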

How the results depend on the processing

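Leaving out 1 mouse at a time gave 0 to 2 called members for VB on the Western diet, 1 to 4 for the Western diet in vehicle mice and 0 to 5 for the difference of the VB effects. The upper ends are without mouse 4 of the Western diet vehicle group, where 9.62%, 18.9% and 13.4% of all genes were called in that order. Without mouse 5 of that group Ndufa10 joined Atp5s, at 0.32 (adjusted p = 0.0341 in edgeR). With both mouse 4 libraries of the Western diet left out, chosen after seeing the data, 8 members were called for the diet in vehicle mice. For the difference 1 member was called. The shares of all genes called in that fit were 19.9% and 12.6% in that order. Ndufa5 turned to -0.27 (adjusted p = 0.0414 in edgeR) for the diet in vehicle mice. With the clock score as a covariate 0 members were called for the diet in vehicle mice, where that score separates the groups without overlap. Atp5s passed in the other 32 of 33 alternatives, at 0.46 to 0.56. With mouse number as a replicate block 2 members were called for the diet in vehicle mice, Atp5s at 0.50 and Ndufa10 at 0.24 (adjusted p = 0.0432), and no other call of a named member changed. Correlations of same-numbered mice ran from -0.065 to 0.378, 7 of 30 were over 0.1, and a mouse correlated best with its own number in 28 of 60 cases, where 12 are expected without pairing. That is a hint from the data that same-numbered mice share something, but the labels give no such link and most pairs were under 0.1, so the block was kept as an alternative. Depth limits Cox7a1 and Ndufa4l2, at 1.06 and 0.874 CPM.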
